A study of Homo sapiens with 6 samples.

Results

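Transcripts of 7 matrix metalloproteinases (MMP1, MMP2, MMP3, MMP9, MMP10, MMP13 and MMP14) and of 3 tissue inhibitors of metalloproteinases (TIMP1, TIMP2 and TIMP3) were followed in TC28a2, an immortalised line of human chondrocytes. These 10 genes were chosen by symbol, and all 10 were found among the 28395 Entrez gene IDs of the deposited count table. The cells had been transfected with a ZEB1 overexpression vector (3 libraries) or with a control vector (3 libraries), and RNA was taken 48 h later for DRUG-seq, a low-cost, high-throughput form of RNA-seq. ZEB1 is a zinc finger transcription factor best known as a repressor in epithelial to mesenchymal transition, and the comparison asks which transcripts differ when it is overexpressed, as part of work on a senescent cell population in osteoarthritis. The labels do not say whether the 3 libraries of a group were separate cultures, so the spread behind each p-value may be technical only. The promoter that drives ZEB1 in the vector and the share of cells that took it up are not stated in the labels.

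Matrix metalloproteinases are zinc endopeptidases that are made as inactive proenzymes and together can cut most proteins of the extracellular matrix. TIMPs bind to the active site of the mature enzymes and block them. In cartilage, collagenases of this family, above all MMP13, cut type II collagen, and the loss of that collagen is a hallmark of osteoarthritis.

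The coding sequence of the zinc site is shown because all 7 proteases have it, though it is not the only motif that they share. A single match to the site was found in the longest complete coding transcript of each (GENCODE v29, GRCh38). Capitals mark the codons of the zinc-binding histidines, the catalytic glutamate and the conserved glycine, and each line runs 5′ to 3′ on the coding strand.
MMP1: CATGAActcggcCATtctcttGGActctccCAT
MMP3: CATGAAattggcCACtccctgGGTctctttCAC
MMP10: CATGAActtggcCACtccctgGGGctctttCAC
MMP13: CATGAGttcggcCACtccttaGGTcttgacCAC
MMP2: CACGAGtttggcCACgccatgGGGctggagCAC
MMP9: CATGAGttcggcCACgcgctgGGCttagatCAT
MMP14: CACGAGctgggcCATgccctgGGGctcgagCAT
The site lies within exon 5 of MMP1 (chr11:102795549-102795581), MMP3 (chr11:102840535-102840567), MMP10 (chr11:102776718-102776750), MMP13 (chr11:102952115-102952147) and MMP14 (chr14:22843283-22843315). In the gelatinases it lies within exon 8, at chr16:55491827-55491859 in MMP2 and chr20:46012453-46012485 in MMP9. The stromelysins MMP3 and MMP10 had 31 of the 33 bases in common, the highest number of any pair. MMP1 and MMP2 shared the fewest, with 18 of 33.

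MMP3 and MMP10 are shown together once more because reads of one could be counted for the other. Their longest shared coding stretch is 96 bases in exon 3 of each, at chr11:102842434-102842529 in MMP3 and chr11:102779216-102779311 in MMP10 (GRCh38, minus strand).
MMP3 and MMP10: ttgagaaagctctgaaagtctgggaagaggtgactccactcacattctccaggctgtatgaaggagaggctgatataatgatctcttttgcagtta
A read inside this stretch cannot be assigned to either gene by its sequence. It ends 1263 bases before the 3′ end of the MMP3 transcript and 1228 bases before that of MMP10. Of all 50-base stretches of the transcripts of these genes, 2.88% of those of MMP3 and 3.36% of those of MMP10 also occur in the other. In the sense direction, MMP1, MMP9, MMP13, MMP14, TIMP1 and TIMP3 had none in common with another annotated transcript. MMP2 had 2.57% in common with AC007336.3 and TIMP2 2.68% with CEP295NL. Transcripts of the opposite strand were not compared in this way, and their overlaps are given further below.

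The members lie on 7 chromosomes, and 4 of them stand together (GRCh38.p14 coordinates from RefSeq). MMP10 (102770502 to 102780628), MMP1 (102789919 to 102798160), MMP3 (102835801 to 102843609) and MMP13 (102942995 to 102955732) belong to a cluster of 9 MMP genes within 435 kb of chromosome 11. The other 5 genes of the cluster were barely counted, with 11 counts over all 6 libraries for MMP8, 4 for MMP7, 1 for MMP20 and 0 for MMP12 and MMP27. MMP2 lies on chromosome 16 (55478830 to 55506691), MMP9 on chromosome 20 (46008908 to 46016561) and MMP14 on chromosome 14 (22836585 to 22847758). TIMP1 lies on chromosome X (47582436 to 47586789), TIMP2 on chromosome 17 (78852977 to 78925387) and TIMP3 on chromosome 22 (32801705 to 32863041).

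Libraries of the ZEB1 vector held 1277632, 1621270 and 3316228 counts in replicates 1, 2 and 3, and those of the control vector 5359200 to 5878640. The limit that 3 counts set was 0.905 to 2.35 CPM in the ZEB1 libraries and 0.510 to 0.560 CPM in the controls. For this limit each count was scaled to the same library total, without the TMM factors applied to the levels below. ZEB1 transcripts made up 1.08%, 1.35% and 0.698% of these ZEB1 libraries, and 0.00213% to 0.00348% of the control libraries, as the labels have it. Of 13 chondrocyte markers, SOX9 was the only member counted well enough to be tested. ACAN and COL2A1, which define cartilage, had 0 counts in every ZEB1 library and 13 and 11 counts over the 3 controls. The chondrocyte identity is thus taken from the labels, as SOX9 alone does not establish it. Among neutrophil markers, which matter here because neutrophils store MMP8 and MMP9, MPO, ELANE and S100A8 had 0 counts in all 6 libraries. MMP8 had 0 counts in the ZEB1 libraries and 0, 4 and 7 in the controls, and S100A9 had 14, 3 and 7 counts in ZEB1 replicates 1, 2 and 3 and 9, 12 and 17 in the controls.

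MMP9, gelatinase B, which cuts denatured collagens and type IV collagen, showed the clearest difference of the 10 genes. Its level was 132, 140.2 and 228 CPM in ZEB1 replicates 1, 2 and 3, against 316, 299 and 312 CPM in control replicates 1, 2 and 3. All ZEB1 libraries were below all controls, and replicate 3 was the ZEB1 library nearest to them. The mean was 167 ± 53.7 CPM with the ZEB1 vector and 309 ± 8.77 CPM with the control vector (SD, n = 3 each), that is 54.0% of the control level. The log2 fold change was -0.87 (SE 0.18, 95% interval -1.25 to -0.49), with an unadjusted p of 0.000133 and an adjusted p of 0.161 in edgeR's quasi-likelihood test over 11329 genes. MMP9 ranked 8 among all tested genes by p and did not pass the threshold of 0.05, which 0.00883% of the tested genes passed, ZEB1 alone.

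MMP9 was called by other tools, and in edgeR when ZEB1 replicate 3 was left out. The adjusted p was 0.00339 in DESeq2 (over 2455 genes), 0.0154 in limma-voom and 0.00135 in limma-voom with sample quality weights (both over 11329 genes). The log2 fold changes were -0.86, -0.84 and -0.93. In edgeR it was called with no filter on low counts (adjusted p = 0.000272, where 0.0928% of all genes were called lower) and without ZEB1 replicate 3 (log2 fold change -1.19, adjusted p = 0.000952). Without ZEB1 replicates 1 and 2, the shallower ones, the log2 fold change was -0.44 with an edgeR adjusted p of 0.520. The ZEB1 libraries with less MMP9 were thus those with fewer counts and with a larger share of ZEB1, and the part of depth and of the ZEB1 level in this difference was not tested. With all libraries thinned to 1277632 counts in a single random draw, the log2 fold change was -0.91 (edgeR adjusted p = 0.156). Thinning evens the totals only, so it is not a test of the part of depth. Over the 17 alternative settings tried MMP9 stayed below the controls in each, with log2 fold changes of -1.19 to -0.44 and adjusted p of 0.000272 to 0.873.

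**Figure D1:**
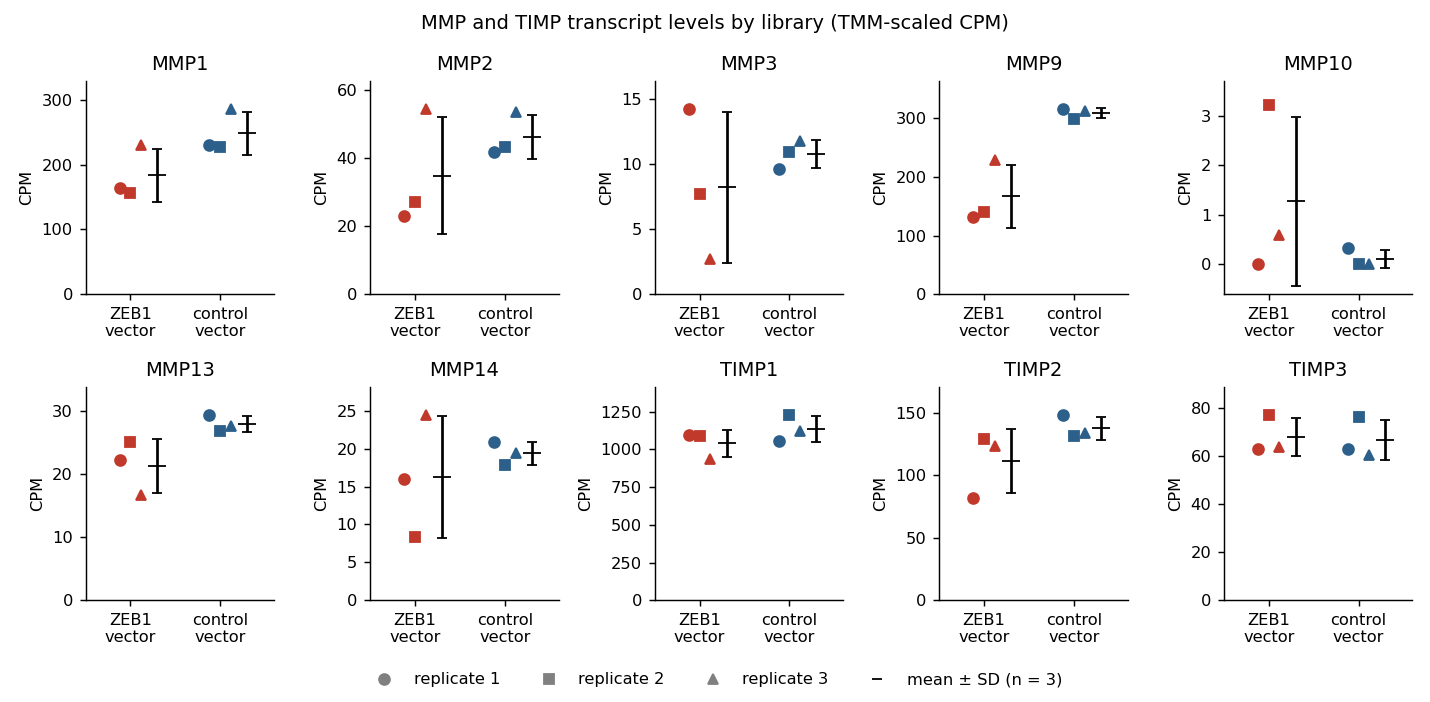
Level of each of the 10 genes (vertical axis, CPM scaled by TMM, not per length) in the 3 ZEB1 vector libraries (red) and the 3 control vector libraries (blue), with replicates 1 to 3 as circle, square and triangle and the mean ± SD beside them. The ZEB1 libraries of MMP9 sit at 132 to 228 CPM, below all controls at 299 to 316 CPM, while those of TIMP3 overlap the controls.

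MMP2, gelatinase A, did not pass the edgeR test. It had 23.1, 27.0 and 54.5 CPM in ZEB1 replicates 1, 2 and 3, against 41.7, 43.4 and 53.7 CPM in the controls. ZEB1 replicates 1 and 2 lay below the controls and replicate 3 above all of them. The log2 fold change was -0.34 (SE 0.29, 95% interval -0.95 to 0.26, edgeR adjusted p = 0.783), and it was -0.88 without ZEB1 replicate 3 and 0.23 without ZEB1 replicates 1 and 2.

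The collagenases MMP1 and MMP13 had similar fold changes with different patterns over the libraries. MMP1, interstitial collagenase, which cuts fibrillar collagens, had 164, 156 and 231 CPM in ZEB1 replicates 1, 2 and 3, against 231, 228 and 286 CPM in the controls. Replicates 1 and 2 of ZEB1 lay below the controls, and replicate 3 lay within their range. The mean was 184 ± 41.3 CPM with the ZEB1 vector and 248 ± 33 CPM with the control vector (SD, n = 3 each). Its log2 fold change was -0.42 (SE 0.17, 95% interval -0.78 to -0.06), with an unadjusted p of 0.0238 and an edgeR adjusted p of 0.434. Without ZEB1 replicate 3 it was -0.64 and passed the edgeR threshold (adjusted p = 0.0338), and without ZEB1 replicates 1 and 2 it was -0.11. Over the 17 alternatives its adjusted p was 0.0338 to 1.00.

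MMP13, collagenase 3, which prefers type II collagen, had 22.2, 25.1 and 16.7 CPM with the ZEB1 vector, against 29.4, 26.8 and 27.6 CPM with the control vector. The groups did not overlap, and replicate 3 was the lowest ZEB1 library here, where it was the highest for MMP1. These levels rested on 25, 39 and 56 counts in ZEB1 replicates 1, 2 and 3 and on 147 to 183 counts in the controls. The log2 fold change was -0.41 (SE 0.31, 95% interval -1.05 to 0.23, edgeR adjusted p = 0.739), so the difference was not called despite the separation. It was -0.24 without ZEB1 replicate 3 and -0.75 without ZEB1 replicates 1 and 2.

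MMP14, the membrane-bound collagenase that activates the MMP2 proenzyme at the cell surface, had 16, 8.36 and 24.4 CPM in ZEB1 replicates 1, 2 and 3, against 20.9, 17.9 and 19.4 CPM in the controls. The ZEB1 libraries lay on either side of the controls. MMP14 had a log2 fold change of -0.21 (SE 0.39, 95% interval -1.01 to 0.60, edgeR adjusted p = 0.918), which was 0.10 without ZEB1 replicate 2 and -0.71 without ZEB1 replicate 3.

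The stromelysins, which cut proteoglycans and other matrix proteins and can activate other MMP proenzymes, were close to the limit of what this depth can show. MMP3 (stromelysin-1) had 16, 12 and 9 counts in ZEB1 replicates 1, 2 and 3, or 14.2, 7.72 and 2.68 CPM, against 60, 60 and 72 counts in the controls, or 9.62, 10.9 and 11.7 CPM. Replicate 1 of ZEB1 was above the controls and replicates 2 and 3 were below them. Its log2 fold change was -0.51 (SE 0.56, 95% interval -1.68 to 0.66, edgeR adjusted p = 0.844), and it turned to 0.31 when the libraries were thinned. It was -0.0091 without ZEB1 replicate 3, -1.18 without ZEB1 replicate 1, -2.0 without both ZEB1 replicates 1 and 2, and -1.15 in limma-voom. MMP10 (stromelysin-2) had 0, 5 and 2 counts with the ZEB1 vector and 2, 0 and 0 with the control vector, and did not pass the low-count filter. Per total count this is a ratio of 9.61 with an exact 95% counting interval of 1.83 to 94.8, which leaves out the spread between libraries and takes reads as independent. It was 3.72 without ZEB1 replicate 2, which held 5 of the 7 ZEB1 counts.

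None of the 3 TIMP transcripts passed the edgeR test, and their unadjusted p values were 0.394 for TIMP1, 0.122 for TIMP2 and 0.900 for TIMP3. TIMP1, a secreted inhibitor that also binds the MMP9 proenzyme, had 1097, 1087 and 938 CPM in ZEB1 replicates 1, 2 and 3, against 1056, 1228 and 1124 CPM in the controls. Replicates 1 and 2 of ZEB1 lay within the control range and replicate 3 below it. The mean was 1041 ± 89.1 CPM with the ZEB1 vector and 1136 ± 86.8 CPM with the control vector (SD, n = 3 each), with a log2 fold change of -0.13 (SE 0.15, 95% interval -0.43 to 0.18, edgeR adjusted p = 0.853). It was -0.066 without ZEB1 replicate 3, -0.071 without control replicate 2 and -0.27 with library size as the only scaling.

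TIMP2, which binds MMP14 and takes part in the activation of MMP2, had 81.7, 129 and 123 CPM with the ZEB1 vector, against 148, 131 and 134 CPM with the control vector. All ZEB1 libraries were below all controls, though replicate 2 lay only just below the lowest control. TIMP2 had a log2 fold change of -0.29 (SE 0.18, 95% interval -0.67 to 0.09, edgeR adjusted p = 0.663), and it was -0.13 without ZEB1 replicate 1, the library with the lowest level.

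TIMP3, the matrix-bound inhibitor that also blocks ADAM and ADAMTS proteases, had 63.1, 77.2 and 63.7 CPM with the ZEB1 vector, against 63.2, 76.4 and 60.7 CPM with the control vector. The groups overlapped, and replicate 2 was the highest library of each. Its log2 fold change was 0.03 (SE 0.20, 95% interval -0.39 to 0.45, edgeR adjusted p = 0.983), and the sign turned to -0.10 with library size as the only scaling.

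**Figure D2:**
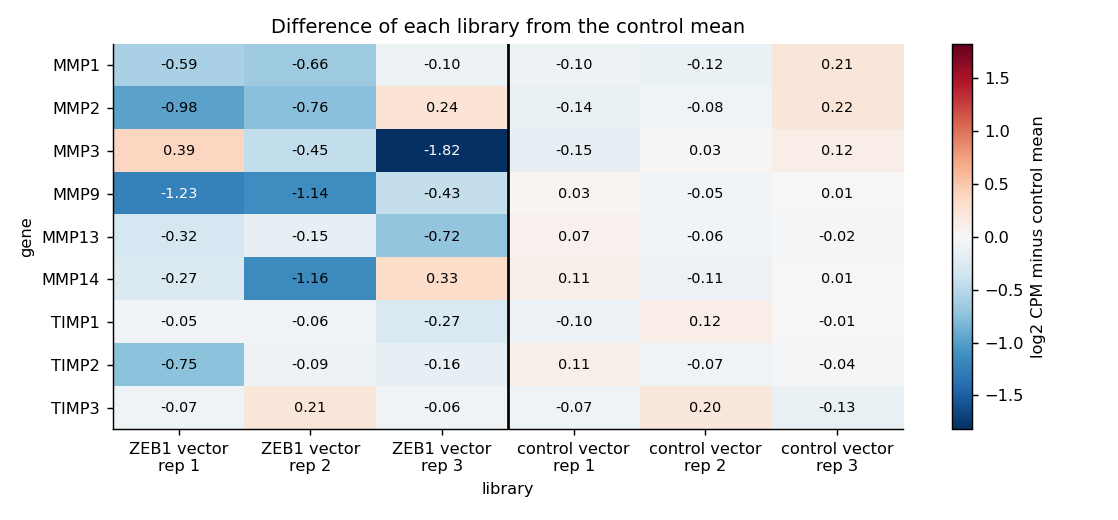
Difference in log2 CPM (prior count 2) between each library and the mean of the controls, for the 9 tested genes in rows, with the 3 ZEB1 vector libraries left of the line and the 3 control vector libraries right of it. MMP9 is below the control mean in each ZEB1 library (-1.23, -1.14 and -0.43), while MMP2 is below it in ZEB1 replicates 1 and 2 and above it in replicate 3, and MMP3 is at 0.39 in ZEB1 replicate 1 and -1.82 in ZEB1 replicate 3.

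Over the 9 tested genes the median log2 fold change was -0.34, and 8 were below 0, where the median over all 11329 tested genes was -0.01 and 51.5% were below 0. At an unadjusted p under 0.05, MMP1 and MMP9 were lower and no member was higher, that is 2 of 9, where 3.57% of all tested genes were lower and 5.83% higher. All ZEB1 libraries lay below all controls for MMP9, MMP13 and TIMP2, that is 3 of 9, where 8.16% of all tested genes did. None of the 9 passed an edgeR adjusted p of 0.05. By the other tools, MMP9 was the member called, as 1 of 4 members with an adjusted p in DESeq2 (0.53% of all genes with an adjusted p were called lower), 1 of 9 in limma-voom (0.0353%) and 1 of 9 with quality weights (0.0883%). Without ZEB1 replicate 3, edgeR called MMP1 and MMP9 lower, 2 of 9, where it called 0.984% of all tested genes lower. With library size as the only scaling the median of all genes moved to -0.14, and TIMP3 was the member whose sign changed with it.

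**Figure D3:**
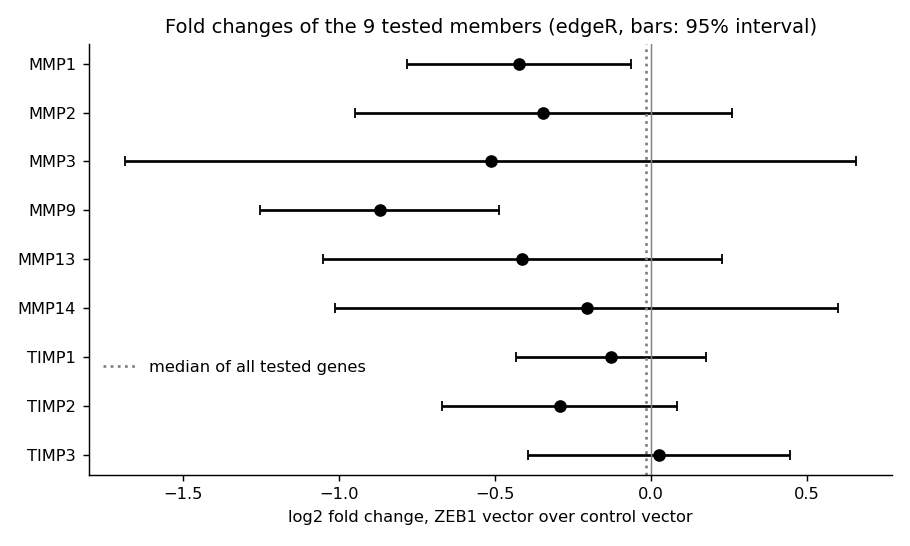
Log2 fold change of the 9 tested genes, ZEB1 vector over control vector (horizontal axis), with the 95% interval from the edgeR fit, unadjusted for the number of genes. The intervals of MMP9 (-1.25 to -0.49) and MMP1 (-0.78 to -0.06) lie below 0 and the other 7 include it, and the dotted line marks the median of all tested genes (-0.01).

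The 7 MMP genes together took 0.0327%, 0.0352% and 0.0565% of all counts in ZEB1 replicates 1, 2 and 3, against 0.0693%, 0.0641% and 0.0741% in the controls. The Wilson 95% intervals, which cover counting error only, were 0.0297% to 0.0360%, 0.0324% to 0.0382% and 0.0540% to 0.0592% in the ZEB1 libraries and did not reach those of the controls, the lowest of which began at 0.0620%. The 3 TIMP genes took 0.109%, 0.124% and 0.114% with the ZEB1 vector, against 0.135%, 0.147% and 0.137% with the control vector. MMP1 and MMP9 held most of the MMP counts, and TIMP1 most of the TIMP counts, so these sums follow those genes. Shares are of the library total, of which ZEB1 itself took part, and were not scaled by TMM. On the TMM scale TIMP1 had 1097, 1087 and 938 CPM with the ZEB1 vector, against 1056, 1228 and 1124 CPM in the controls. Those groups overlapped, so the separation of the TIMP shares depends on the scaling.

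The ratio of protease to inhibitor counts within a library does not depend on its scaling. The log2 ratio of MMP9 to TIMP1 counts was -3.06, -2.96 and -2.04 in ZEB1 replicates 1, 2 and 3, against -1.74, -2.04 and -1.85 in the controls. Replicate 3 of ZEB1 and replicate 2 of the controls met at the same rounded value. The mean was -2.68 ± 0.56 with the ZEB1 vector and -1.88 ± 0.15 with the control vector (SD, n = 3 each), a difference of -0.81 with a two-sided exact permutation p of 0.2 (0.4 after Benjamini-Hochberg adjustment over 2 ratios), where 3 libraries against 3 cannot give less than 0.1. The log2 ratio of MMP14 to TIMP2 was -2.35, -3.94 and -2.34 with the ZEB1 vector, against -2.83, -2.88 and -2.78 with the control vector. The ZEB1 libraries lay on either side of the controls, and the difference of -0.05 had an exact permutation p of 1.

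**Figure D4:**
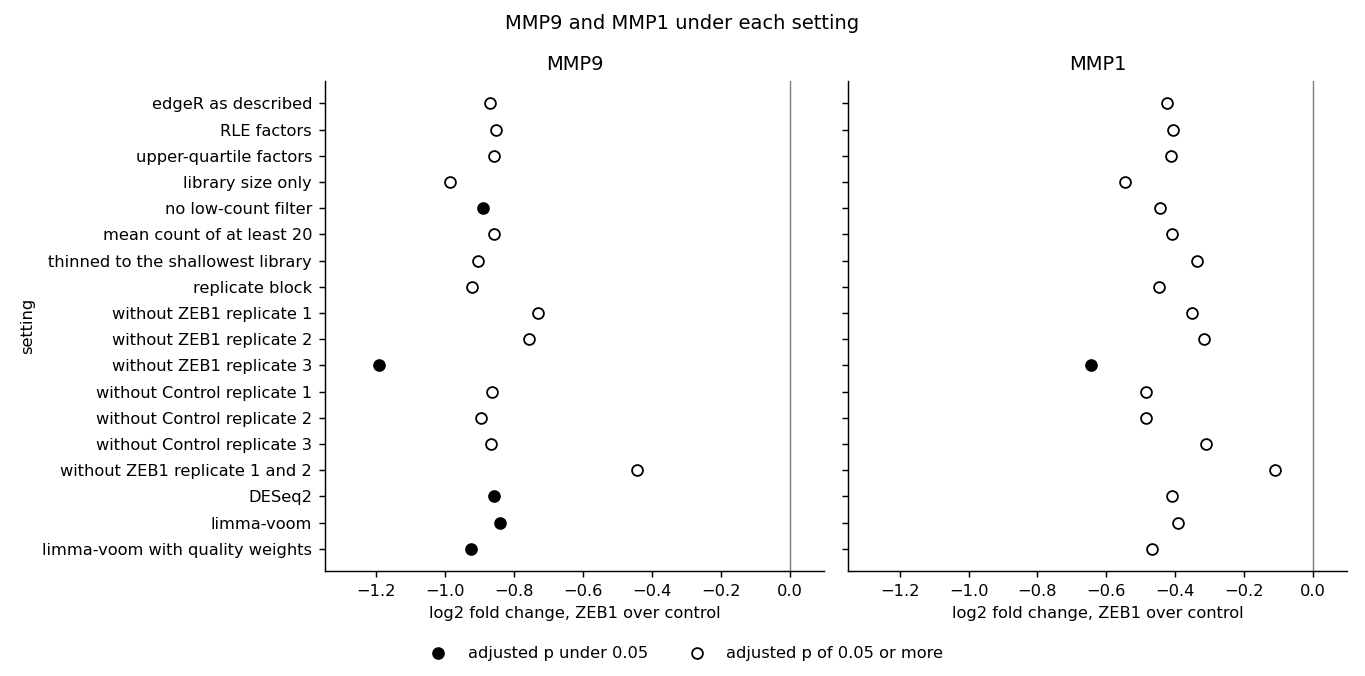
Log2 fold change of MMP9 (left) and MMP1 (right), ZEB1 vector over control vector (horizontal axis), under the edgeR test as described and 17 alternative settings (vertical axis), with filled circles where the adjusted p over all genes was under 0.05. MMP9 is below 0 throughout (-1.19 to -0.44) and called in 5 alternatives, and MMP1 (-0.64 to -0.11) is called without ZEB1 replicate 3.

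The other MMP genes and TIMP4 had few counts in these cells. Of the 17 genes of this list, 12 had a count and 5 had none in any library, 4 could be tested, and 0 were called by edgeR in either direction, also at an unadjusted p under 0.05. The members with most counts were MMP16 and MMP17, both membrane-anchored, with log2 fold changes of 0.01 (SE 0.41) and -0.32 (SE 0.54).

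Of 24 genes that activate, inhibit, anchor or clear MMPs, 17 were tested, with a median log2 fold change of -0.14, beside -0.01 over all tested genes. At an edgeR adjusted p of 0.05, 0 were higher and 0 lower. With no adjustment, at p under 0.05, 1 of the 17 was higher and 3 were lower, where 5.83% of all tested genes were higher and 3.57% lower. Among the lower ones were PLAU, which encodes urokinase, the protease that makes the plasmin that activates several MMP proenzymes, and PLAUR, which encodes its receptor. The log2 fold change was -0.48 (SE 0.17) for PLAUR and -0.43 (SE 0.18) for PLAU, with edgeR adjusted p of 0.305 and 0.460. PLAU had 135, 159 and 234 CPM in ZEB1 replicates 1, 2 and 3, against 246, 232 and 240 CPM in the controls. The groups overlapped for PLAU and did not for PLAUR. The higher one was the proprotein convertase gene PCSK7 (0.82, SE 0.38, edgeR adjusted p = 0.513). BSG, which encodes the MMP inducer EMMPRIN, had a log2 fold change of -0.21 (SE 0.16).

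Of 27 transcription factor genes known to act on MMP promoters, 25 were tested, with a median log2 fold change of -0.18, beside -0.01 over all tested genes. None was higher or lower at an edgeR adjusted p of 0.05. With no adjustment, at p under 0.05, 0 of the 25 were higher and 3 lower, beside the same 5.83% and 3.57% of all tested genes. Those 3 encode parts of AP-1, the dimeric factor through which growth factors and cytokines induce many MMP genes. The log2 fold change was -1.18 (SE 0.31) for FOSL2, -0.66 (SE 0.18) for FOSL1 and -0.68 (SE 0.25) for JUNB, with edgeR adjusted p of 0.215, 0.225 and 0.363. The other AP-1 genes of the list were on both sides of 0, with log2 fold changes of 0.78 (SE 0.77) for FOS, -0.92 (SE 1.11) for FOSB, -0.42 (SE 0.20) for JUN and 0.06 (SE 0.18) for JUND. CEBPB, the member with most counts, had a log2 fold change of -0.27 (SE 0.15). Groups did not overlap in 6 lower and 1 higher of the 25, where 8.16% and 6.96% of all tested genes were separated that way.

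RefSeq promoter windows of 300 bases (GRCh38.p14) were matched for MMP10, MMP14, TIMP1 and TIMP3. They were searched on both strands for CAGGTG or CAGGTA, E-box forms that ZEB1 is known to bind, and for TGAGTCA or TGACTCA, the AP-1 motif. Neither occurred in the 4 windows, where 28.1% of all 35116 windows hold such an E-box and 4.95% the AP-1 motif.

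The patterns most like that of MMP9 over the 6 libraries, by the root mean square difference of centred log2 CPM among 5630 other genes of mean count 100 or more, were those of STK38L (0.078), CALCOCO2 (0.080) and RHBDD3 (0.093). STK38L had 17.8, 19.9 and 35.4 CPM with the ZEB1 vector, against 44.6, 38.8 and 43.2 CPM with the control vector. As for MMP9, its ZEB1 replicate 3 was the one nearest to the controls, which follows from the choice by likeness. The patterns most like that of TIMP1 were those of TCAF1 (0.045), NEDD8 (0.048) and PPIE (0.048). Their log2 fold changes were -0.12, -0.11 and -0.13, and their closeness to that of TIMP1 also follows from the choice.

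Of the markers of other cell types, the epithelial keratins were well counted. The 6 epithelial markers summed to 931, 876 and 1017 CPM with the ZEB1 vector, against 980.2, 1024 and 929 CPM with the control vector, nearly all of it from KRT8 (log2 fold change -0.03, SE 0.14) and KRT18 (-0.07, SE 0.14). The summed level of 5 endothelial markers was 8.89, 8.36 and 8.64 CPM with the ZEB1 vector, against 1.44, 2.55 and 2.77 CPM with the control vector. PECAM1 had 4, 12 and 22 counts in ZEB1 replicates 1, 2 and 3 and 9, 6 and 11 in the controls, with a log2 fold change of 2.04 (SE 0.87, unadjusted p = 0.0293, edgeR adjusted p = 0.462) and groups that did not overlap. Of the others, TEK had 6 counts in ZEB1 replicate 1 and 0 elsewhere, KDR had 4 counts in ZEB1 replicate 3 and 1 in the controls, VWF had 4 over the ZEB1 libraries and 8 over the controls, and CDH5 had 0 and 5. The 7 leukocyte markers summed to 6.22 to 18.8 CPM with the ZEB1 vector and 14.9 to 18.9 CPM with the control vector, and the 5 neutrophil markers to 1.93 to 12.4 CPM and 1.44 to 3.92 CPM. The part of such RNA in the results on MMP and TIMP genes was not tested.

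Other annotated genes overlap 8 of the 10 members in GENCODE v29, MMP13 and MMP14 being the exceptions, and the strand setting of the counting is not known here. SLC12A5-AS1 shares 430 exonic bases with MMP9, WTAPP1 shares 150 with MMP1 and 32 with MMP3, and AC022966.1 shares 367 with TIMP2, all on the strand opposite to the member. On the same strand, CEP295NL shares 198 with TIMP2 and AC007336.3 shares 174 with MMP2. WTAPP1 had 2 counts over the ZEB1 libraries and 3 over the controls, and CEP295NL 0 and 8. SLC12A5-AS1, AC022966.1 and AC007336.3 were not found by these names among the counted genes, so their levels are not known here. TIMP1 and TIMP3 lie in introns of SYN1 and SYN3 with no exonic overlap. Without strand, reads from the shared bases of MMP9, MMP1, MMP3 and TIMP2 and of their antisense genes cannot be told apart.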

How the data were processed

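The authors deposited raw counts per Entrez gene ID, with a column for each of the 6 libraries. The submitters' processing notes name the tools HISAT2, Subread and featureCounts and the build GRCh38, with no role or version. Annotation release, strand setting and any collapsing of reads to molecules are, in the sources used here, not given, and without collapsing the counting intervals are too narrow. A RefSeq table (GRCh38.p14) gave symbols for 27745 of the 28395 IDs.

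The main test was edgeR 4.0.16 under R 4.3.3: quasi-likelihood, robust dispersions, TMM factors, filterByExpr and group as the only term. P-values are two-sided, with Benjamini-Hochberg adjustment over 11329 genes and a threshold of 0.05. Standard errors and intervals were computed from each fold change and its F value and are approximate, with a median standard error of 0.33 over all tested genes. CPM was scaled by TMM, not by length, so levels were not compared between genes. Log2 CPM used a prior count of 2.

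The alternatives were other factors (RLE, upper-quartile, none), no filter or a mean count of at least 20, thinning, a replicate block, left-out libraries, DESeq2 1.42.0 on the whole table, limma-voom (limma 3.58.1) with and without quality weights, and an adjusted p of 0.10. The edgeR, DESeq2 and limma-voom fits at their default settings were tested on simulated counts, and the other steps were not. Members and lists were chosen with earlier results of these data known, so no p over the members alone is given. From each list the text names the called genes, or else those with the 2 highest mean counts and up to 5 with an unadjusted p under 0.05. A gene that this rule names is not reported here. Cell marker lists are given as sums.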

Additional observations from a re-analysis of the deposited data

How the results depend on the processing

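The count of genes past an adjusted p of 0.05 was 1 in edgeR. It was 127 with no low-count filter, 178 in DESeq2, 58 in limma-voom and 154 with quality weights. Without single libraries it was 1 to 409, the 409 being without ZEB1 replicate 3, and it was 2 without ZEB1 replicates 1 and 2, where the lone ZEB1 library is assumed to vary like the controls. The cause was not tested. DESeq2 gave an adjusted p to 2455 genes. With the replicate number as a block the count was 1. Deviations from the group mean had correlations of -0.032, -0.0095 and 0.0087 between same-numbered libraries. With 3 libraries of unequal depth per group, such values cannot tell whether same-numbered libraries shared a culture or batch. Signs turned without ZEB1 replicates 1 and 2 for MMP2 (0.23), MMP14 (0.33) and TIMP3 (-0.07). They turned with thinning for MMP3 (0.31) and with library size only for TIMP3 (-0.10). Leaving out ZEB1 replicate 2 turned MMP14 (0.10) and TIMP3 (-0.077). TIMP3 also turned without control replicate 1 (-0.022) and without control replicate 3 (-0.040). Without single libraries or that pair, the log2 fold change was -0.88 to 0.23 for MMP2, -0.71 to 0.33 for MMP14 (0.10 without ZEB1 replicate 2) and -0.077 to 0.13 for TIMP3. MMP3 spanned -1.18 to -0.0091 without single libraries, MMP13 -0.56 to -0.24, TIMP1 -0.19 to -0.066 and TIMP2 -0.40 to -0.13. MMP1, MMP9, MMP13, TIMP1 and TIMP2 kept their sign in all 17 alternatives. The log2 ratio difference of MMP9 to TIMP1 was -1.13 to -0.62, and that of MMP14 to TIMP2 was -0.32 to 0.48 (0.48 without ZEB1 replicate 2). Depth limits MMP3, MMP10, MMP13 and MMP14 most, with under 100 counts in each ZEB1 library.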
